A study of Mus musculus with 3 samples.

Results

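Serpinb6a, Serpinb6b, Serpinb6c, Serpinb6d, Serpinb6e, Serpinb1a, Serpinb8, Serpinb9 and Serpinb9b are mouse genes of serpin clade B, and their expression was followed in RNA-seq libraries of c2c12 cells cultured on 3 substrates. These 9 genes were taken by their symbols from 23238 symbols, among which 27 name a Serpinb gene. They were chosen on measured values, because Serpinb6c and Serpinb6e stood out in the GelMA-PSS library, so the levels below are a description and carry no test. The c2c12 line is an immortalized line of mouse myoblasts that can fuse into myotubes. All 3 cultures had been moved to myogenic induction medium with horse serum and were collected on day 2. The first grew on a tissue culture plate (TCP), the second on a hydrogel of 15% methacrylated gelatin (GelMA), and the third on the same 15% gel with 1% of the sulfonated polymer poly(sodium 4-styrenesulfonate) copolymerized into it (GelMA-PSS). Each substrate was sequenced once, with 1 library in each group, so differences between substrates stand without replicates and without p-values. TCP and GelMA served as controls for GelMA-PSS, and the difference between these controls is the only measure of how far libraries can lie apart.

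Serpins are protease inhibitors that fold around an exposed loop, the reactive centre loop. A target protease cuts this loop as if it were a substrate, and the serpin then springs into a new shape that traps the enzyme. Clade B members lack a classical signal peptide and mostly stay in the cytoplasm and nucleus, where they are known for protecting cells from their own or incoming proteases. SERPINB6, first described as a cytoplasmic antiproteinase, inhibits trypsin-like proteases and cathepsin G. SERPINB1 inhibits neutrophil elastase and related proteases, SERPINB8 inhibits furin, and SERPINB9 inhibits granzyme B. Mice carry several copies of the Serpinb6 and Serpinb9 genes where humans have a single copy of each.

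In the GelMA-PSS library, transcripts of Serpinb6c and Serpinb6e that were traces on the controls were well counted, and with a pseudocount of 1 no other gene of the 13169 tested had a larger log2 ratio against the nearer control. Serpinb6a, the main Serpinb6 transcript on every substrate, was about 2-fold higher on GelMA-PSS, with a fold of 2.02 against GelMA and 1.96 against TCP. Serpinb6b was higher by 1.80-fold and 2.22-fold, and Serpinb9b by 1.87-fold and 1.58-fold. Serpinb1a, Serpinb8 and Serpinb9 lay within 1.44-fold of either control on GelMA-PSS, and Serpinb6d stayed at 11 counts or fewer.

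The paralogs were close enough in sequence that their reads had to be told apart before their levels could be read. Their coding sequences come from GENCODE vM21 on the build GRCm38, with 1 transcript per gene. Between Serpinb6a and Serpinb6c, 86.5% of the aligned coding bases were identical, and the longest identical run was 60 bases. Serpinb6c and Serpinb6e shared 81.9% of aligned coding bases with a longest run of 57 bases, and Serpinb6a and Serpinb6e shared 78.1% with a longest run of 26 bases. The longest run between any pair of Serpinb6 paralogs was 79 bases, found between Serpinb6c and Serpinb6d. No stretch of 100 transcript bases of Serpinb6b, Serpinb6c, Serpinb6d or Serpinb6e occurred in a transcript of any other annotated gene. The last coding bases are shown because they hold the part that encodes the reactive centre loop, where each paralog was less like Serpinb6a than over its whole coding sequence. They run 5′ to 3′ on the coding strand and end with the stop codon, and capitals mark bases that do not match Serpinb6a in an alignment of the whole coding sequences.
Serpinb6a: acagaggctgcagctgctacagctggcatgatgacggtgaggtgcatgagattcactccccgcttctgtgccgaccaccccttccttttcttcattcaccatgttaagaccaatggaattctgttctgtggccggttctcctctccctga
Serpinb6b: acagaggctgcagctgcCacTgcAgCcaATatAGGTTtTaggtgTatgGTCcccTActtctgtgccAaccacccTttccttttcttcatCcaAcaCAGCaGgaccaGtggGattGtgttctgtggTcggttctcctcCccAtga
Serpinb6c: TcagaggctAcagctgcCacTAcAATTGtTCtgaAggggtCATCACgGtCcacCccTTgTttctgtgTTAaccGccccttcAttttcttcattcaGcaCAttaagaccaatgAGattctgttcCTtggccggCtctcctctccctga
Serpinb6d: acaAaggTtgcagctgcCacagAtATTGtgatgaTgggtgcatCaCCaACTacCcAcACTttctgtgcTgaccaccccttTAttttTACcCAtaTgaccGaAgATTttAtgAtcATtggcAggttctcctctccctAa
Serpinb6e: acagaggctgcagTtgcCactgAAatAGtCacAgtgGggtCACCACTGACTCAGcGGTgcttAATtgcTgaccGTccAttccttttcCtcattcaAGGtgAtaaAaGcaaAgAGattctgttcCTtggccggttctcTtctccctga
Over this end, 33 of 144 bases of Serpinb6b, 38 of 147 bases of Serpinb6c, 40 of 138 bases of Serpinb6d and 46 of 147 bases of Serpinb6e had no match in Serpinb6a. Serpinb6e, the paralog with the largest change, was also the least like Serpinb6a over the whole coding sequence and over this end. A read from any of these ends therefore carries bases that separate the paralogs, but how the authors' counting treated reads that map to several genes is not given in the sources used here.

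Of the 9 genes, 8 lie on chromosome 13 in build GRCm38, in a cluster that also holds other Serpinb genes. Serpinb6e (chr13:33832345-33843408), Serpinb6c (chr13:33879816-33905708) and Serpinb6a (chr13:33917918-34002794) are consecutive members on the minus strand, with 36407 bases between the first pair and 12209 bases between the second. Serpinb6d (chr13:33661405-33671581) lies on the plus strand 160763 bases from Serpinb6e. Serpinb6b (chr13:32965209-32979067), Serpinb9 (chr13:33003250-33017957) and Serpinb9b (chr13:33027416-33041884) form another group on the plus strand, and Serpinb1a (chr13:32842092-32851185) is on the minus strand beyond them. Serpinb8 (chr1:107590006-107610484) is on chromosome 1.

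RNA-seq measured messenger RNA, and the deposited values were raw counts by gene symbol. The TCP library held 119799095 counts, the GelMA library 87071144 and the GelMA-PSS library 192171443. Levels are CPM, the counts of a gene relative to a fixed library total, scaled with TMM factors, and a floor of 3 counts came to 0.0246, 0.0330 and 0.0166 CPM in these libraries. Ratios between substrates were taken on log2(CPM + 1), a scale that shrinks differences between low levels. The filter asked for 1 CPM in any library, the threshold was 2-fold, and 8 of the 9 serpins passed the filter, Serpinb6d being the one that did not. Serpinb6e passed it through the GelMA-PSS library alone, so its difference follows in part from the filter. Intervals are exact 95% intervals and cover counting error only. Markers of skeletal muscle cells were at a summed CPM of 28251, 20791 and 17861 on TCP, GelMA and GelMA-PSS, with 12 of 14 listed markers in the files and all 12 tested. Of these, 4 were higher and 4 lower on GelMA-PSS than on both controls, beside 45.3% and 39.3% of all genes tested. Mef2c and Myh3, a muscle transcription factor and embryonic myosin heavy chain, were lower on GelMA-PSS past 2-fold against both controls, at 289, 181 and 81.0 CPM for Mef2c and 10182, 6355 and 3037 CPM for Myh3, and neither was past 2-fold against GelMA once centred on transcript length. Myf5, a factor of early myoblasts, went the other way, at 13.9, 19.5 and 36.5 CPM. The part of these marker differences in the serpin values was not tested. In such bulk samples, fewer cells of a type and less RNA per cell cannot be told apart.

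Serpinb6e had 3 counts on TCP, 0 counts on GelMA and 8150 counts on GelMA-PSS. On the CPM scale this was 0.0246 on TCP, with an interval of 0.00508 to 0.0720, and 45.0 on GelMA-PSS, with an interval of 44.0 to 46.0. Both controls lay at or under the limit of detection, and the GelMA-PSS library was far above them. Against the 3 counts on TCP the CPM ratio was 1826, with an interval from 625 to 8857. Against GelMA, a count of 3 in place of 0 gave a ratio of 1363, and the exact interval against 0 began at 1108. The log2 ratio was 5.49 against TCP and 5.52 against GelMA. Both were the highest of the 13169 genes tested with this pseudocount of 1 and with 0.25, but with a pseudocount of 5 Serpinb6c ranked above Serpinb6e in both comparisons. Serpinb6e is one of the mouse copies without a separate human counterpart.

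Serpinb6c had 215 counts on TCP, 73 on GelMA and 13579 on GelMA-PSS, or 1.77, 0.803 and 75.0 CPM. Unlike Serpinb6e it was counted on all substrates. GelMA was lower than TCP, with a ratio of 0.455 and an interval of 0.344 to 0.596, so the controls differed from each other for this gene. GelMA-PSS was 93.3-fold above GelMA, with an interval from 74.2 to 119, and 42.5-fold above TCP, with an interval from 37.1 to 48.8. The log2 ratios were 5.40 against GelMA and 4.78 against TCP, each second to Serpinb6e with a pseudocount of 1 and first with 5, while the log2 ratio of GelMA against TCP was -0.62.

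Serpinb6a, the copy taken as the mouse counterpart of human SERPINB6, had 65292 counts on TCP, 47318 on GelMA and 190689 on GelMA-PSS, or 536, 521 and 1053 CPM. The controls were nearly level and GelMA-PSS stood apart from both. The log2 ratio was 1.01 against GelMA, just past the threshold, and 0.97 against TCP, just short of it, against -0.04 between the controls. Transcript length moved with this result. Over the 500 tested genes nearest to Serpinb6a in transcript length, the median log2 ratio came to 0.36 (GelMA-PSS against GelMA) and 0.29 (against TCP). After that median was subtracted, the log2 ratio of Serpinb6a was 0.65 and 0.68, and neither passed 2-fold. Exons of Serpinb6a also overlap genes on the opposite strand. Of 5409 exon bases, 762 are shared with Nqo2, 584 with 1110046J04Rik and 241 with Ripk1. On TCP, GelMA and GelMA-PSS, Nqo2 had 3576, 2823 and 7789 counts, 1110046J04Rik had 595, 529 and 2158, and Ripk1 had 2398, 2183 and 3524. Whether reads of the opposite strand were kept apart was not tested.

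Serpinb6b, the copy placed apart from the other Serpinb6 genes, had 2402 counts on TCP, 2208 on GelMA and 7917 on GelMA-PSS, or 19.7, 24.3 and 43.7 CPM. It was the only tested serpin of the 9 with a higher level on GelMA than on TCP under this scaling, by a log2 ratio of 0.29. On GelMA-PSS its log2 ratio was 1.11 against TCP and 0.82 against GelMA. Centred on genes of like transcript length these were 0.99 and 0.62, and the call against TCP was lost. Serpinb6b and Serpinb6c were the most alike of the Serpinb6 coding sequences, with 86.8% of aligned bases identical, yet Serpinb6c was 42.5-fold and Serpinb6b 2.22-fold above TCP on GelMA-PSS.

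Serpinb6d had 2 counts on TCP, 0 on GelMA and 11 on GelMA-PSS. Against the 2 counts on TCP the CPM ratio was 3.70 with an interval from 0.807 to 34.3, which spans 1. Against GelMA, a count of 3 in place of 0 gave a ratio of 1.84, and the exact interval against 0 began at 1.26. A difference for Serpinb6d was therefore not detectable at this depth against TCP. Serpinb6d lies next to Serpinb6e in the order of the members, and its transcript shares no stretch of 100 bases with it.

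**Figure D1:**
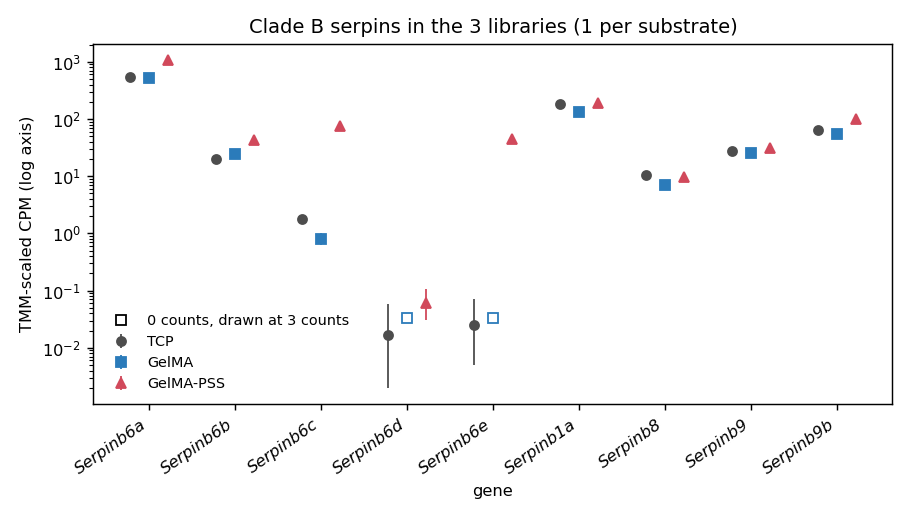
TMM-scaled CPM of each of the 9 serpins on TCP (circles), GelMA (squares) and GelMA-PSS (triangles), on a log axis, with bars for the exact 95% counting intervals where they exceed the symbols and open symbols, drawn at the value of 3 counts, for 0 counts. Serpinb6c and Serpinb6e sit at 75.0 and 45.0 CPM on GelMA-PSS and at 1.77 CPM or less on the controls. The remaining genes on GelMA-PSS lie within 2.22-fold of either control or, for Serpinb6d, near 0 on all substrates.

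Summed over Serpinb6a to Serpinb6e, which does not depend on how reads were split between them, the level was 558 CPM on TCP, 546 on GelMA and 1216 on GelMA-PSS. GelMA-PSS was 2.23-fold above GelMA, with an interval from 2.21 to 2.25, and 2.18-fold above TCP, with an interval from 2.16 to 2.20. GelMA was at 0.979 times TCP, a difference whose sign turned when total counts were used without TMM factors. Serpinb6a made up 79.3% of the gain over GelMA and 78.4% of the gain over TCP, so most of the added Serpinb6 counts came from the gene with the small fold. Serpinb6c made up 11.1% of either gain, and Serpinb6e 6.71% and 6.83%. The make-up of the sum differed between substrates. Serpinb6a held 96.1% of the summed counts on TCP, 95.4% on GelMA and 86.5% on GelMA-PSS, and Serpinb6b held 3.54%, 4.45% and 3.59%. Serpinb6c held 0.317%, 0.147% and 6.16%, and Serpinb6e held 0.00442% on TCP, 0 of 49599 counts on GelMA and 3.70% on GelMA-PSS.

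Serpinb6c and Serpinb6e kept no fixed proportion to Serpinb6a, as the shares above show, nor to each other. Serpinb6e made up 1.38% of the 218 counts of both genes on TCP (0.285% to 3.97%), 0 of 73 on GelMA, where the exact interval reaches 4.93% and the floor of 3 counts 4.11%, and 37.5% of 21729 on GelMA-PSS (36.9% to 38.2%). These intervals do not overlap between GelMA-PSS and either control, but they cover counting error only, with 1 library per substrate. Both genes were chosen because they stood out on GelMA-PSS, so nothing further is read from this.

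**Figure D2:**
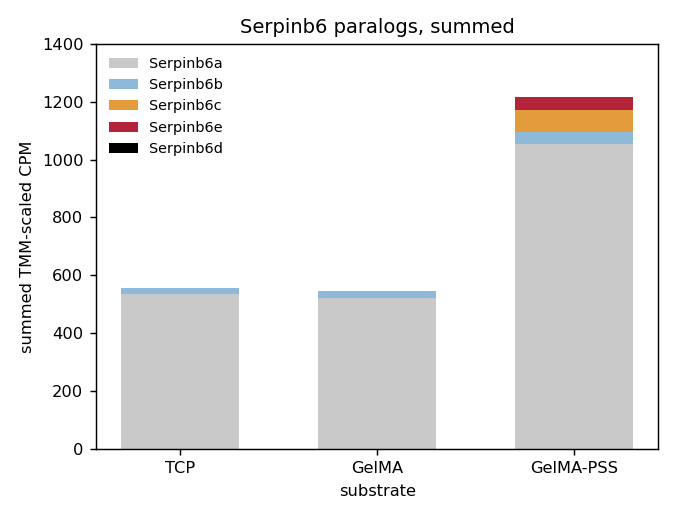
Stacked TMM-scaled CPM of Serpinb6a, Serpinb6b, Serpinb6c, Serpinb6e and Serpinb6d on the 3 substrates, 1 library each, with the bar height giving their sum. The bars reach 558, 546 and 1216 CPM, and Serpinb6c and Serpinb6e are visible only on GelMA-PSS, where they add 75.0 and 45.0 CPM.

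Serpinb9b, a copy of the granzyme B inhibitor gene, had 7767 counts on TCP, 4892 on GelMA and 18223 on GelMA-PSS, or 63.8, 53.8 and 100.6 CPM. GelMA-PSS lay above both controls, with log2 ratios of 0.65 against TCP and 0.89 against GelMA, and neither passed 2-fold. Centring on transcript length left them at 0.67 and 0.91. Of 3351 exon bases, 278 are shared with Gm36099 on the opposite strand.

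Serpinb9, the granzyme B inhibitor itself, had 3339 counts on TCP, 2328 on GelMA and 5575 on GelMA-PSS, or 27.4, 25.6 and 30.8 CPM. The libraries were nearly level, with log2 ratios of 0.16 against TCP and 0.26 against GelMA. Serpinb9 and Serpinb9b are neighbours with 9458 bases between them and 85.5% of their aligned coding bases identical.

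Serpinb1a, the mouse counterpart of the elastase inhibitor, had 22600 counts on TCP, 11888 on GelMA and 34020 on GelMA-PSS, or 186, 131 and 188 CPM. Here GelMA was the library apart, below the other two. Against GelMA the log2 ratio was 0.52, and against TCP it was 0.02, and the sign against TCP turned, to -0.09, on total counts without TMM factors and, to -0.16, after centring on transcript length. Serpinb8, the furin inhibitor, had 1280 counts on TCP, 628 on GelMA and 1762 on GelMA-PSS, or 10.5, 6.91 and 9.73 CPM. It followed the order of Serpinb1a only in that GelMA was lowest, and its log2 ratio was 0.44 against GelMA and, with TCP as the control, -0.10, which became 0.09 after centring on transcript length.

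Divided by transcript length, the levels kept one order on the controls and another on GelMA-PSS. On TCP, Serpinb6a was highest at 357 CPM per kb, followed by Serpinb1a at 96.8, Serpinb9b at 19.6, Serpinb6b at 8.995, Serpinb9 at 7.90, Serpinb8 at 2.29 and Serpinb6c at 1.33, with Serpinb6e and Serpinb6d last and not separated by their counting intervals. GelMA had the same order down to Serpinb6c, at 346 CPM per kb for Serpinb6a and 0.605 for Serpinb6c. On GelMA-PSS, Serpinb6c was in the third place at 56.5 CPM per kb, behind Serpinb6a at 700 and Serpinb1a at 97.9. Serpinb9b at 30.9 and Serpinb6e at 30.1 CPM per kb came next, with counting intervals that overlap, and Serpinb6b followed at 19.9.

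Set against all genes tested, 3 of the 8 tested serpins were higher past 2-fold on GelMA-PSS than on GelMA (Serpinb6a, Serpinb6c and Serpinb6e), where 1.77% of all genes tested were. Against TCP, 3 of 8 were (Serpinb6b, Serpinb6c and Serpinb6e), beside 3.72% of all genes. Serpinb6c and Serpinb6e were higher past 2-fold against both controls, beside 1.37% of all genes, and 0 of the 8 were higher past 2-fold on GelMA than on TCP, beside 0.706%. The genes were chosen on the contrast of GelMA-PSS with the controls, and Serpinb6e passed the filter through GelMA-PSS alone. Nothing is therefore read from these shares, nor from the shares and medians given below. By any amount, 7 of 8 were higher on GelMA-PSS than on both controls, where 45.3% of all genes were, and 7 of 8 were lower on GelMA than on TCP, where 51.7% of all genes were, although for Serpinb6a and Serpinb6e this small difference turned its sign after centring on transcript length. On log2(CPM + 1), 0 of the 8 were lower past 2-fold in any of the 3 comparisons. Of all genes, 2.33% were against GelMA, 3.13% against TCP and 0.296% between the controls. With shares this small 0 of 8 says little. Past 1.5-fold, 5 of 8 were higher on GelMA-PSS than on both controls (Serpinb6a, Serpinb6b, Serpinb6c, Serpinb6e and Serpinb9b), beside 8.08% of all genes, and the same 5 were higher than on GelMA, beside 11% of genes, and than on TCP, beside 13.2%. On the same scale, Serpinb6c alone was lower past 1.5-fold on GelMA than on TCP, beside 2.12% of all genes. Without the pseudocount, Serpinb8 was past it too, with a CPM ratio of 0.657. The median log2 ratio over the 8 genes was 0.86 against GelMA and 0.81 against TCP, beside 0.03 and 0.04 over all genes tested, and the median between the controls was -0.17 beside -0.01. Both comparisons of GelMA-PSS share that library, so they are not independent of each other.

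**Figure D3:**
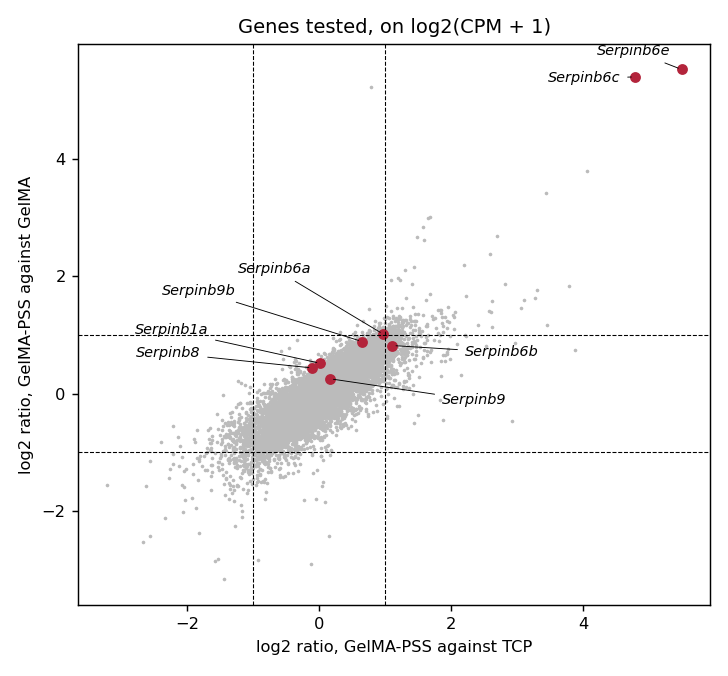
Log2 ratio of GelMA-PSS against TCP (horizontal) and against GelMA (vertical) on log2(CPM + 1) for 13169 genes tested (grey), with the 8 tested serpins in red and dashed lines at 2-fold. Serpinb6e and Serpinb6c lie at the upper right, at 5.49 and 4.78 against TCP and 5.52 and 5.40 against GelMA, apart from the cloud, and the other serpins lie within it.

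The region around the Serpinb6 genes was compared gene by gene. Of 20 genes of other families that start within 1 Mb of a Serpinb6 gene, 16 were tested. On GelMA-PSS 10 of these were higher and 6 lower than on both controls, where 45.3% and 39.3% of all genes tested were. On log2(CPM + 1), none was higher past 2-fold against both controls, beside 1.37% of all genes. With a share this small none of 16 says little. Ripk1, a kinase of cell death signalling whose start overlaps that of Serpinb6a on the other strand, was at 19.7, 24.0 and 19.5 CPM on TCP, GelMA and GelMA-PSS. Nqo2, a quinone reductase gene within the span of Serpinb6a, was at 29.4, 31.1 and 43.0 CPM. The antisense transcript 1110046J04Rik was at 4.89, 5.82 and 11.9 CPM, with log2 ratios of 0.92 and 1.13 against GelMA and TCP. Without the pseudocount, its CPM on GelMA-PSS was past 2-fold above both controls. Thus the genes that overlap Serpinb6a were not alike in their ratios. On the far side of Serpinb6b the nearest tested gene of another family, Wrnip1, was level at 40.8, 38.0 and 37.3 CPM. Mylk4, a muscle kinase gene, was lower on GelMA-PSS past 2-fold against both controls, though not against GelMA once centred on transcript length, at 67.0, 40.5 and 18.3 CPM, Pxdc1 was higher at 13.2, 18.7 and 37.1 CPM, and Slc22a23 was lower at 18.0, 18.6 and 8.87 CPM. One further neighbour, 4930447K03Rik, named after its values were seen, was at 23.7 CPM on TCP, 0.132 on GelMA and 41.4 on GelMA-PSS, so that GelMA was the library apart.

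**Figure D4:**
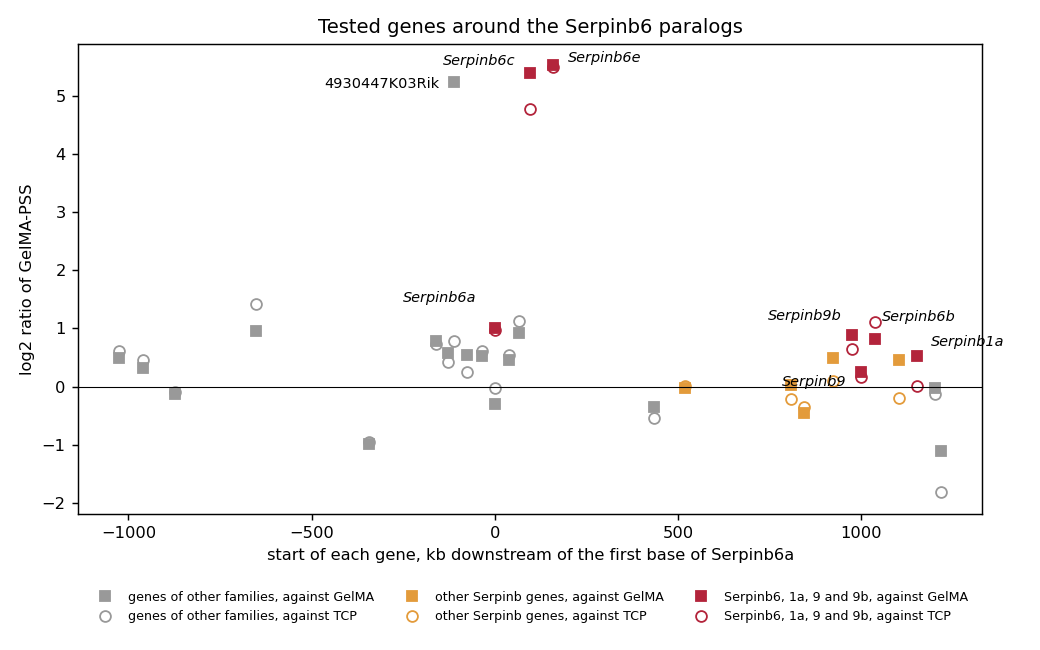
Log2 ratio of GelMA-PSS against GelMA (squares) and against TCP (circles) for tested genes around the Serpinb6 genes, by the distance in kb of each gene's start downstream of the first base of Serpinb6a. Serpinb6c and Serpinb6e stand at 4.78 or more on both ratios, while the genes on either side, other Serpinb genes included, lie below 1.5 apart from 4930447K03Rik, which was high against GelMA only.

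The bases before the start of Serpinb6e were compared with those of its near neighbours, because these genes share a cluster and differ in their levels on GelMA-PSS. RefSeq windows on GRCm38.p6 were found for 8 of the 9 genes, and the 250 bases before each RefSeq start were used. These starts do not all match the GENCODE spans given above. The windows of Serpinb6c, Serpinb9 and a downstream start of Serpinb6a lie inside those spans. Those of Serpinb6b and of a downstream start of Serpinb6d overlap theirs in part. Serpinb6d and Serpinb6e were the most alike pair of different genes among the windows, with 176 of 230 aligned bases (76.5%) identical and a longest identical run of 15 bases, although Serpinb6d stayed at 11 counts where Serpinb6e had 8150. The windows of Serpinb6c and of the upstream start of Serpinb6a had 43.1% of aligned bases identical and a longest identical run of 7 bases. The pair of Serpinb6d and Serpinb6e is shown 5′ to 3′ on each gene's strand with capitals on the 74 bases of each that have no match in the other, and Serpinb6c with capitals on the letters GGGCGG.
Serpinb6d (chr13:33661155-33661404, plus strand): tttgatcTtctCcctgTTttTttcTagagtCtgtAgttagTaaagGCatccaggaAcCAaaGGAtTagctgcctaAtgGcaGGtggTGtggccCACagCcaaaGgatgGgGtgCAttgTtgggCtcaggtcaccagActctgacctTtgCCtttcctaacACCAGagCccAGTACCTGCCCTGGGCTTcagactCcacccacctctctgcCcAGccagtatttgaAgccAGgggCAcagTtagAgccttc
Serpinb6e (chr13:33843409-33843658, minus strand): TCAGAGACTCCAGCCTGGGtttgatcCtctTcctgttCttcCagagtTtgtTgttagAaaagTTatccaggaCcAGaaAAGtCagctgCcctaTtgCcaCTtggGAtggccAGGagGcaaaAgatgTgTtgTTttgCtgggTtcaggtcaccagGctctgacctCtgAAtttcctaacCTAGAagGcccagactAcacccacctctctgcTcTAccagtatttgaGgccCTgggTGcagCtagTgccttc
Serpinb6c (chr13:33905192-33905441, minus strand): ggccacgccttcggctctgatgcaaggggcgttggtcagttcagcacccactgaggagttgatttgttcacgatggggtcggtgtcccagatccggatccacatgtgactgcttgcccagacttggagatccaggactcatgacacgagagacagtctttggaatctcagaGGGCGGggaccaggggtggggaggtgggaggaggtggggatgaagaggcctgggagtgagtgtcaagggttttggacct
Several short motifs, picked after the sequences had been read, were searched on both strands. The letters CAGCTG, an E-box of the kind that myogenic factors bind, occurred in the window of Serpinb6e, in that of the downstream start of Serpinb6a and in that of Serpinb8. They occurred in 4271 of 32851 windows of the same length. The letters GGGCGG, a GC box, occurred in Serpinb6c, Serpinb6b and the upstream start of Serpinb6a, and in 32.7% of all windows. The letters TGANTCA, the AP-1 motif, occurred only in Serpinb8 among these windows and in 6.75% of all, CCAAT only in the downstream start of Serpinb6a and in 33.8% of all, and TATAAA in none of these windows and in 12.4% of all.

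Genes whose profile over the 3 libraries was most like that of each paralog were found by the Euclidean distance between mean-centred log2(CPM + 1) values. For Serpinb6c and Serpinb6e no tested gene outside the 9 came within a distance of 0.25. This follows in part from their choice as genes that stood out on GelMA-PSS. The nearest to both were Scd4, a stearoyl-CoA desaturase gene, at distances of 1.14 and 1.31, 2410017I17Rik at 1.43 and 1.70, and Gm8909 at 2.01 and 2.30. Scd4 was at 1.81, 2.38 and 45.6 CPM on TCP, GelMA and GelMA-PSS. Serpinb6a and Serpinb6b had common profiles, with 581 and 535 genes within 0.25. The nearest were Serf1, Rps27l and Ost4 for Serpinb6a, at 0.0149, 0.0168 and 0.0226, and Dbndd2, Spc25 and Sepw1 for Serpinb6b, at 0.00570, 0.00585 and 0.0143. With 3 libraries these distances describe the profiles and no more.

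Among the 18 other Serpinb genes in the files, 6 had no count in any library. Another 6 were tested, and on log2(CPM + 1) none passed 2-fold in any of the comparisons. Of all genes, 3.72% or less passed 2-fold in each comparison and direction, so none of 6 says little. Without the pseudocount, Serpinb7 was lower past 2-fold on GelMA and on GelMA-PSS than on TCP. Serpinb7 was at 3.25, 1.33 and 1.57 CPM on TCP, GelMA and GelMA-PSS, Serpinb1c at 3.59, 1.90 and 3.00, and Serpinb1b at 2.54, 1.67 and 2.77. Serpinb9c was at 1.10, 1.24 and 0.646, Serpinb9d at 1.49, 1.10 and 1.14, and Serpinb9g at 1.90, 1.95 and 1.92. Their median log2 ratio was -0.21 against TCP and 0.08 against GelMA. Of 36 serpins of other clades, 7 were tested. On GelMA-PSS 5 were higher and 2 lower than on both controls, beside 45.3% and 39.3% of all genes. None of the 7 passed 2-fold on log2(CPM + 1). Serping1, the complement C1 inhibitor, was at 60.0, 66.7 and 99.6 CPM on TCP, GelMA and GelMA-PSS, and Serpina1a, an antitrypsin gene, at 7.93, 8.42 and 3.75. Centred on transcript length, the log2 ratio of Serpina1a was -1.35 against GelMA and -1.21 with TCP as the control, past 2-fold lower against both.

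Proteases known as clade B serpin targets, or their close relatives, were examined beside the inhibitors. Of 32 listed, 16 were tested. On GelMA-PSS 10 were higher and 5 lower than on both controls, where 45.3% and 39.3% of all genes tested were. On log2(CPM + 1), none passed 2-fold against both, beside 1.37% of all genes higher and 1.16% lower. With shares this small 0 of 16 says little. Against TCP alone 2 of the 16 were higher past 2-fold on that scale, beside 3.72% of all genes. Without the pseudocount, Pcsk6 was lower past 2-fold against both controls. Plau, the urokinase plasminogen activator, was at 158, 191 and 284 CPM on TCP, GelMA and GelMA-PSS, Casp8, an initiator caspase, at 14.4, 15.5 and 25.2, and Pcsk6, a relative of furin, at 2.00, 2.02 and 0.988. Clade B serpins are abundant in leukocytes and epithelia, so markers of those cells were counted as well. The 14 leukocyte markers summed to 1.48, 1.03 and 0.834 CPM, of which Itgam, an integrin of myeloid cells, made up 1.03, 0.649 and 0.375 and was the only one to pass the filter. Nkg7 and Fcer1a were at 0 in each library and Ptprc, the pan-leukocyte CD45 gene, had 0, 0 and 4 counts. The 7 keratinocyte and epithelial markers summed to 79.3, 47.1 and 31.9 CPM, of which Trp63 made up 60.1, 31.8 and 18.2. Cdh1 was also lower, at 10.2, 8.26 and 5.31 CPM, and Krt10 was higher on GelMA-PSS than on both controls, at 4.93, 4.46 and 5.42 CPM. Krt14 was at 4.04, 2.48 and 2.89 CPM. The others were close to absent, with 3, 3 and 3 counts for Krt5, 4, 3 and 4 for Epcam and 0, 1 and 0 for Krt1. The endothelial markers, 4 in number, summed to 0.756, 0.682 and 0.905 CPM, and the 4 adipocyte markers to 0.0985, 0.0770 and 0.0662. Of these sums, the endothelial one alone was higher on GelMA-PSS than on both controls. It stayed below 1 CPM on every substrate, and none of its 4 genes passed the filter.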

How the data were processed

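RNA-seq counts of 3 c2c12 libraries were used, 1 from each substrate. The values deposited by the authors are whole-number counts for each gene symbol, not normalized. The submitters' processing notes name TopHat and edgeR and the builds mm10 and hg19, and the counting tool and its treatment of multimapping reads are not given in the sources used here. The labels name a SMARTER kit and the study's methods a TruSeq kit and strand-specific paired-end reads. It is not known whether the mates of a pair were counted separately, which would make the intervals too narrow, and reads without molecular identifiers are not independent molecules.

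The 9 genes, the related lists and the markers were chosen with earlier results of these data known. Each file held 23282 lines, and lines that share a symbol (35 symbols) were summed to 23238 symbols. CPM used TMM factors of 1.02, 1.04 and 0.943 for TCP, GelMA and GelMA-PSS (edgeR 4.0.16 in R 4.3.3). The filter asked for 1 CPM in any library, with a pseudocount of 1 and a threshold of 2-fold, which is the fold used in the study's methods. With 1 library per substrate no count model could be fitted and no p-value was computed. Intervals are Clopper-Pearson or exact conditional intervals (scipy 1.17.1). Where a control had 0 counts, a fold was taken against 3 counts in that library. The lower end of the exact interval against 0 is given beside it.

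Transcripts, coding sequences and positions came from GENCODE vM21 (GRCm38), and 22197 symbols matched directly, 650 through older symbols and 391 not at all. Centring on length subtracted the median ratio of the 500 tested genes nearest in transcript length. Coding sequences and windows before starts were aligned globally (Biopython 1.88). The text names all 9 genes, the tested Serpinb genes, the 3 genes of each list with the largest one-sided change of GelMA-PSS, the genes next to or overlapping the Serpinb6 genes, and the 3 nearest profiles. The values of 1 gene that this rule names are not reported here. Alternatives were the scaling (total counts, DESeq2 1.42.0 size factors, upper quartile), the pseudocount, the filter, the fold threshold, the treatment of repeated symbols and the centring on length. Known 4-fold differences in 200 genes were recovered in 100% of cases when the procedure was tested on simulated data, with 12897 genes tested and 0 unchanged genes called, for GelMA-PSS against both controls. That check holds no variation between cultures, and a 4-fold difference lies well past the 2-fold threshold, so full recovery says little. With a simulated dependence on transcript length, the Spearman correlation of the ratios with length was -0.965 before centring and -0.192 after it. Centring therefore left part of that dependence.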

Additional observations from a re-analysis of the deposited data

How the results depend on the processing

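Serpinb6c and Serpinb6e were past 2-fold against both controls under each scaling, pseudocount, filter and length-centred alternative tried. With a threshold of 1.5-fold, 5 serpins were higher than GelMA, 5 higher than TCP and 5 higher than both. The shares of all genes tested were 11%, 13.2% and 8.08%. At this threshold 1 serpin (Serpinb6c) was lower on GelMA than on TCP on log2(CPM + 1), beside 2.12% of all genes. The log2 fold of the summed Serpinb6 counts was 1.16 against GelMA, 1.12 against TCP and -0.03 between the controls, and on total counts without TMM factors it was 1.01, 1.02 and 0.00695. With upper-quartile factors it was 1.14 against GelMA. Serpinb6a lost its 2-fold call against GelMA on total counts, with upper-quartile factors and after centring on transcript length, and Serpinb6b lost its call against TCP with a pseudocount of 5 and after centring. The log2 ratios of Serpinb6c and Serpinb6e depend on the pseudocount because their controls are near 0. Against GelMA the log2 ratio was 6.16 with a pseudocount of 0.25 and 3.78 with 5 for Serpinb6c, and 7.50 and 3.32 for Serpinb6e, so that with 5 their order turned and Serpinb6c ranked first of all genes tested. With 0.25, Serpinb6c ranked 3 against GelMA. No paired analysis was possible because each substrate has 1 library, and for the same reason no library could be left out. Depth limits Serpinb6d and the control levels of Serpinb6e, which rest on 3 counts or fewer.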
